A study of Mus musculus with 6 samples.

Results

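The sugar transporters of the nephron were followed as 7 genes: the sodium-coupled carriers Slc5a2, Slc5a1, Slc5a10 and Slc5a11 and the facilitative carriers Slc2a5, Slc2a2 and Slc2a1. They were chosen by gene symbol, and every probe set with a single listed gene among them was taken, which gave 11 of the 45037 non-control probe sets on the array. Slc2a1 had 3 probe sets, Slc5a2 and Slc5a1 had 2 each, and the other genes had 1 each. Whole kidney RNA was hybridised from 6 male mice aged 10 weeks, 1 Affymetrix array per animal. In 3 mice, heterozygous and titled TG, the soluble intracellular domain (ICD) of the endocytic receptor megalin was expressed; the other 3, littermates labelled wild type, served as controls. The strain, the part of the megalin gene that was introduced and the promoter that drives it are not given in the sources used here. The comparison addresses whether the free megalin domain alters transcripts of the proximal tubule, the segment in which megalin works.

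Filtered glucose is taken up almost entirely in the proximal tubule. SGLT2, encoded by Slc5a2, carries the bulk of it across the brush border of the early tubule (segments S1 and S2) together with sodium, and SGLT1, encoded by Slc5a1, recovers the remainder in the straight segment S3. Sugar leaves the cell across the basolateral membrane through GLUT2 (Slc2a2) in the early tubule and GLUT1 (Slc2a1) further along. Fructose, mannose and myo-inositol have carriers of their own in the brush border membrane.

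All values are log2 values from RMA (robust multi-array average), so that a difference of 1 is a doubling, and they can be compared between arrays for a probe set but not between probe sets. The 11 probe sets were bright: their means over the 6 arrays lay at the 83.5th percentile of all probe sets or above. Array medians lay between 6.62 and 6.66. Markers of S1 and S2 and of S3 were all measured, 8 of 8 and 7 of 7, at or above the 77.8th percentile, which fits the kidney label. Skeletal muscle markers averaged 5.51 to 5.54 in ICD arrays and 5.46 to 5.64 in WT arrays. Adipose markers (3 of 5 measured) were bright, with means of 10.16 to 10.73 in ICD arrays and 9.72 to 10.41 in WT arrays and a median difference, ICD minus WT, of 0.37. Podocyte markers (4 of 5 measured) averaged 8.19 to 8.32 in ICD arrays and 7.73 to 8.04 in WT arrays, with a median difference of 0.38, and 0.29 without the array labelled WT 3. For each of these 4 podocyte genes the groups did not overlap, beside 9.10% of all genes at their brightest probe set. None of the 4 passed the test. The part of either cell type in the transporter values was not tested. The array labelled WT 3 stood apart and is named throughout. On it, 19 probe sets read at least 1 below the lowest of the other 5 arrays, against 3 to 6 such probe sets on each other array. WT 3 was also the lowest array at 2 of the 3 probe sets of the megalin gene Lrp2. The bright one of these, 1427133_s_at, read 12.25, 12.37 and 12.26 in ICD kidneys, against 13.01, 12.97 and 12.13 in WT kidneys, so that WT 3 lay below all ICD arrays. The brightest, 1452320_at, read 12.77, 12.93 and 12.80 in ICD kidneys, against 12.92, 12.78 and 12.78 in WT kidneys, with the genotypes interleaved. With all arrays 1427133_s_at differed by -0.41, ICD minus WT, and without WT 3 by -0.70 (interval -0.88 to -0.52, limma adjusted p = 0.186). Without WT 3 the other probe sets, 1452320_at and the dimmer 1445901_at, differed by -0.02 and -0.01. Lrp2 therefore gives no check of the genotype labels. Only 1 of its 3 probe sets set the ICD arrays apart from WT 1 and WT 2, and there WT 3 lay beside the ICD arrays. The introduced part of the gene is also not known here.

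Slc2a2 followed Slc5a2 across the WT animals whereas Slc5a1 and Slc5a10 did not. The sequence before the transcription start of Slc2a2, Slc5a1 and Slc5a10 is therefore shown (RefSeq, build GRCm38.p6). Of the 7 genes 6 had a promoter entry, with 7 starts. Slc5a2 had none, so its own sequence could not be set beside them. The 3 genes were picked after their values were seen, and the cause of the shared order was not tested. Each line gives the 250 bases upstream of the annotated start, 5′ to 3′ on the gene's strand. They lie at chr3:28697653-28697902 (plus strand) for Slc2a2, at chr5:33103969-33104218 (plus strand) for Slc5a1 and at chr11:61720800-61721049 (minus strand, the first of 2 starts) for Slc5a10. Capitals mark matches to the core site of HNF4, AAAGTCC, on either strand. HNF4 is a regulator of proximal tubule genes, and no other site was searched.
Slc2a2: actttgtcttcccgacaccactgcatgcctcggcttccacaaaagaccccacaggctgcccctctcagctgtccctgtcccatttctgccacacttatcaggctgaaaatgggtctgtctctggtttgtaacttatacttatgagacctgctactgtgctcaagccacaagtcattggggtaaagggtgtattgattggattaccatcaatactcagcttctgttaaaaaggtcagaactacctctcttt
Slc5a1: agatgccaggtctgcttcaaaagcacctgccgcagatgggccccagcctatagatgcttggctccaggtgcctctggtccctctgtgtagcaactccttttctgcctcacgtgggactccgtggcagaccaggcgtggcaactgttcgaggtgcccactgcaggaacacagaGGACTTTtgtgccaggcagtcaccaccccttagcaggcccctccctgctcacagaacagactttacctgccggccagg
Slc5a10: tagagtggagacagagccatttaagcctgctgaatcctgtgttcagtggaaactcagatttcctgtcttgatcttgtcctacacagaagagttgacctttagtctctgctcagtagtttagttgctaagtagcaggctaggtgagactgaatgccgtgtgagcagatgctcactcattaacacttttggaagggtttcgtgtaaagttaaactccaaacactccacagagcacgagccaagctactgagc
In the full windows of 300 bases, which add the 50 bases after the start, the HNF4 core matched 1 of the 7 starts of these genes and 4.21% of all 32851 promoters. That match was antisense, 78 bases before the Slc5a1 start. The Slc2a2 and Slc5a10 windows did not hold these letters.

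Sugar transporter transcripts did not separate the genotypes. None of the 11 probe sets passed an adjusted p under 0.05 in limma (adjusted p from 0.867 to 1.00), where 0% of all probe sets passed. None had an unadjusted p under 0.05 either, against 5.86% of all probe sets, and none had groups that did not overlap, against 10.5%. The ICD mean was higher for 6 probe sets and lower for 5, with a median difference, ICD minus WT, of 0.00094, compared with -0.0061 over all probe sets. The precision differed among them: the 95% confidence interval extended 0.19 around the estimate at its narrowest and 0.79 at its widest. Without WT 3, none of the 11 passed either threshold, against 0.00222% of all probe sets at an adjusted p under 0.05 and 5.53% at an unadjusted p under 0.05. Without WT 1, 6 of the 11, in 4 genes, had an unadjusted p under 0.05, against 7.23% of all probe sets, and none passed after adjustment. With 3 animals per genotype, the smallest 2-sided p of an exact permutation test is 0.1.

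**Figure D1:**
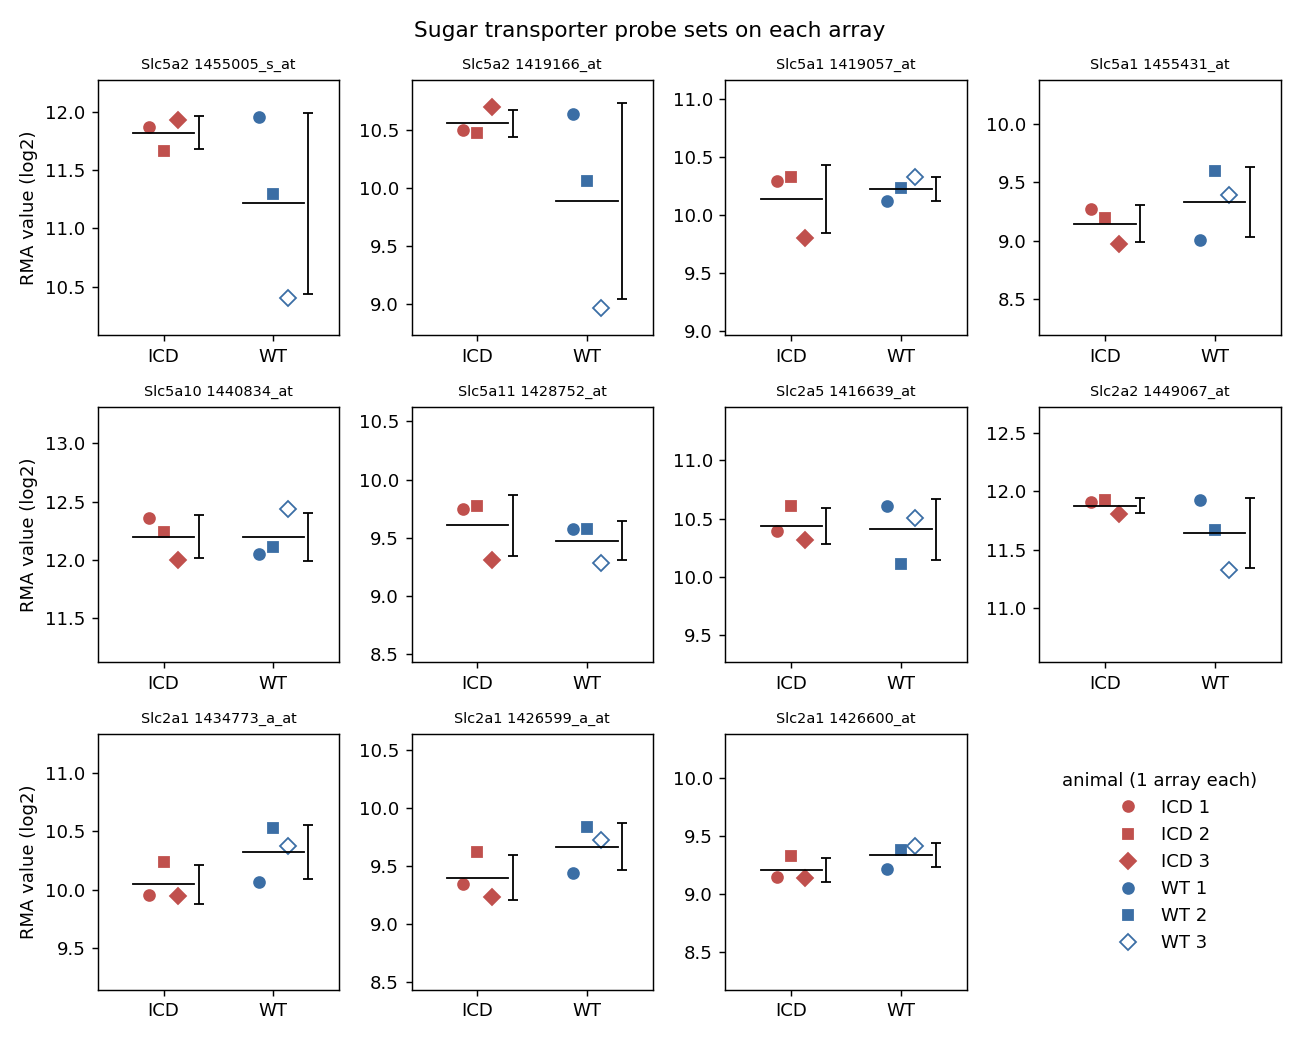
RMA log2 values of the 11 sugar transporter probe sets, ICD on the left and WT on the right of each panel; each symbol is 1 animal, the horizontal line is the group mean and the bar beside it the SD (n = 3), and every panel spans the same log2 range. The open diamond, WT 3, is the lowest point for both Slc5a2 probe sets (10.40 and 8.97), whereas ICD 3 is the lowest for Slc5a1, Slc5a10 and Slc2a1.

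Slc5a2, the main glucose carrier of the brush border, had the largest differences of the 11 and the least certain ones. Probe set 1455005_s_at read 11.87, 11.66 and 11.94 in ICD kidneys, against 11.96, 11.29 and 10.40 in WT kidneys. Probe set 1419166_at read 10.50, 10.48 and 10.70 in ICD kidneys, against 10.64, 10.06 and 8.97 in WT kidneys. The ICD animals lay close together at both, and WT 1 lay with them, WT 2 lower and WT 3 far lower. The differences were 0.61 ± 0.32 (SE; interval -0.13 to 1.34, limma adjusted p = 0.9) and 0.67 ± 0.35 (interval -0.13 to 1.46, limma adjusted p = 0.895). In linear terms these are 1.52-fold and 1.59-fold, with intervals of 0.913 to 2.54 and 0.916 to 2.75. Within the WT group the SD was 0.78 and 0.84, against 0.14 and 0.12 in the ICD group. WT 3 alone read 2.53-fold and 2.83-fold below the mean of the other 5 arrays. Without it the differences were 0.20 (interval -0.23 to 0.63) and 0.21 (interval -0.17 to 0.59), and without WT 1 they were 0.97 and 1.04 (unadjusted p = 0.00349 and 0.006, limma adjusted p = 0.479 and 0.513). Both probe sets put the animals in the same order apart from a swap of WT 1 and ICD 3 at the top. A probe set with the suffix _s_at may also match transcripts of other genes, and the gene Rusf1 overlaps Slc5a2 in the annotation; the part of either in these values was not tested.

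Slc5a1, the high-affinity glucose carrier of S3, ran the other way in the animals that stood out. Probe set 1419057_at read 10.29, 10.33 and 9.80 in ICD kidneys, against 10.12, 10.23 and 10.32 in WT kidneys. ICD 3 was the lowest array, and WT 3 was level with the highest. The dimmer 1455431_at read 9.27, 9.20 and 8.97 in ICD kidneys, against 9.00, 9.60 and 9.39 in WT kidneys. Here too ICD 3 was lowest, with WT 1 beside it. The differences were -0.09 (interval -0.40 to 0.23) and -0.18 (interval -0.53 to 0.16). Without ICD 3 the first became 0.08, of opposite sign, and the second ranged from -0.35 without WT 1 to -0.05 without WT 2.

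Slc5a10 and Slc5a11 encode SGLT5, a carrier of mannose and fructose, and SMIT2, a carrier of myo-inositol that also accepts glucose. Slc5a10 read 12.36, 12.23 and 12.00 in ICD kidneys, against 12.05, 12.11 and 12.43 in WT kidneys. The highest and the lowest arrays were WT 3 and ICD 3, and the group means, 12.20 ± 0.18 and 12.20 ± 0.21 (SD, n = 3 each), differed by 0.00094 (interval -0.29 to 0.29). Its single probe set lies in a gene that overlaps Fam83g in the annotation. Slc5a11 read 9.74, 9.77 and 9.31 in ICD kidneys, against 9.57, 9.57 and 9.28 in WT kidneys. ICD 3 and WT 3 were its lowest arrays, so that the low animals were split between the genotypes. It differed by 0.13 (interval -0.18 to 0.45), by 0.04 without WT 3 and by 0.28 without ICD 3 (unadjusted p = 0.0346, limma adjusted p = 0.827).

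Slc2a5, the fructose carrier GLUT5 of the brush border, read 10.39, 10.61 and 10.31 in ICD kidneys, against 10.61, 10.11 and 10.50 in WT kidneys. WT 2 was its lowest array and WT 1 and ICD 2 its highest. The difference was 0.03 (interval -0.28 to 0.34), and it turned to -0.06 without ICD 2 and -0.12 without WT 2. Its sign was thus set by single animals.

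Slc2a2, which lets glucose out of early proximal cells, shared the order seen for Slc5a2 among the WT animals. It read 11.91, 11.93 and 11.80 in ICD kidneys, against 11.93, 11.67 and 11.33 in WT kidneys. The ICD mean was 11.88 ± 0.065 and the WT mean 11.64 ± 0.30 (SD, n = 3 each), a difference of 0.24 (interval -0.08 to 0.55, limma adjusted p = 0.917). Without WT 3 it was 0.08 (interval -0.15 to 0.31), and without WT 1 it was 0.38 (interval 0.12 to 0.64, unadjusted p = 0.0105, limma adjusted p = 0.563).

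Slc2a1, the widely expressed GLUT1 of the basolateral membrane and also a carrier of endothelium, was lower in ICD kidneys at all 3 probe sets, without passing the test. The brightest, 1434773_a_at, read 9.95, 10.24 and 9.95 in ICD kidneys, against 10.07, 10.53 and 10.37 in WT kidneys. WT 1 lay inside the ICD range, and WT 2 and WT 3 above it. The difference was -0.28 ± 0.13 (SE; interval -0.58 to 0.02, unadjusted p = 0.0643, limma adjusted p = 0.867), or 0.825-fold with an interval of 0.671 to 1.01. Probe sets 1426599_a_at and 1426600_at differed by -0.27 (interval -0.56 to 0.03) and -0.13 (interval -0.33 to 0.07). Leaving out 1 animal moved the first of the 3 between -0.41 (without WT 1) and -0.17 (without WT 2), the second between -0.38 (without WT 1) and -0.18 (without WT 2) and the third between -0.19 (without ICD 2) and -0.09 (without WT 3). The lowest limma adjusted p in these fits was 0.547. The probe sets measure the same transcript in the same animals and are not separate evidence. Of the red cell markers 3 of 6 were measured, with mean levels of 7.31 to 7.51 in ICD arrays, against 7.49 to 7.68 in WT arrays. Alas2 differed by -0.39 and Slc4a1 by -0.20, ICD minus WT, and the haemoglobin gene Hba-a1 by 0.0073. Slc4a1 lay at the 84.7th percentile of all probe sets and Hba-a1 at the 19.7th. Whether Slc4a1 read red cells or cells of the kidney itself was not tested. None of the 3 passed the test, and Hba-a1 was dim on all arrays (4.77 to 4.97). Endothelial markers (5 of 5) averaged 8.32 to 8.56 in ICD arrays, against 7.98 to 8.59 in WT arrays. The part of either in the Slc2a1 difference was not tested, and in whole kidney RNA fewer cells of a type cannot be told apart from less RNA per cell.

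**Figure D2:**
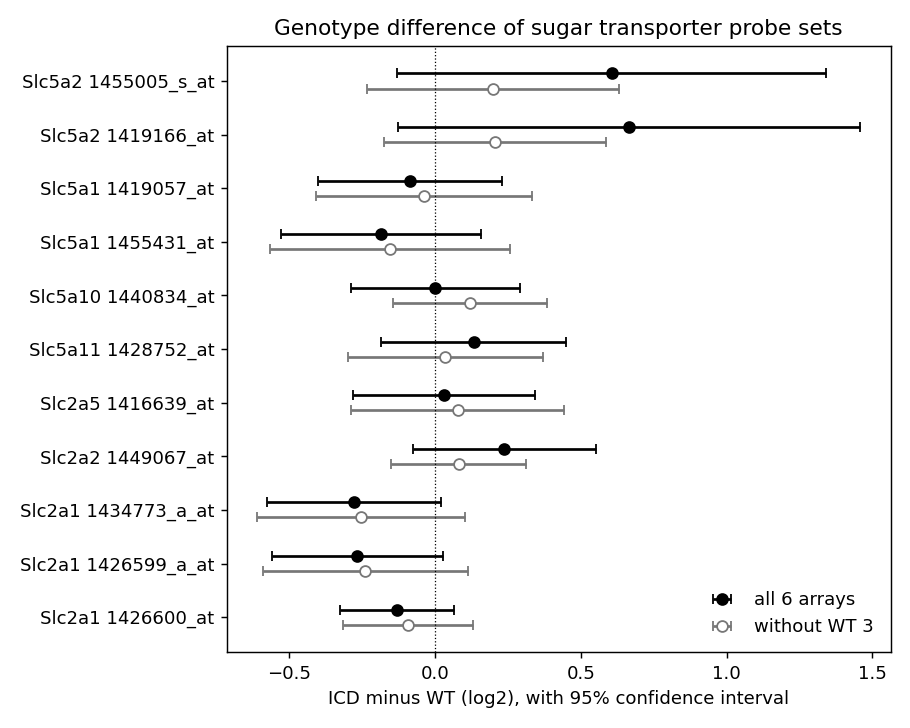
Difference in RMA log2 value, ICD minus WT, for each sugar transporter probe set with its 95% confidence interval from limma, with all 6 arrays (filled) and without WT 3 (open); the dotted line marks no difference. Every interval includes 0, and the Slc5a2 estimates are 0.20 and 0.21 without WT 3, compared with 0.61 and 0.67 with it.

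The carriers differed in which animal was low. Of the 11 probe sets, 6 were lowest on ICD 3 and 4 on WT 3, with 1 on WT 2 and none on the other arrays, whereas over the whole array the share of probe sets lowest on an array was 15.8% for ICD 3 and 16.8% for WT 3. Probe sets of a gene repeat each other; with the brightest of each gene, 3 of 7 genes were lowest on ICD 3 and 3 of 7 on WT 3. Slc5a2, Slc2a2 and Slc5a11 were lowest on WT 3, by 1.34 (1455005_s_at), 0.52 and 0.31 relative to the mean of the other 5 arrays. Slc5a10 read 0.28 above that mean on the same array, the 3 Slc2a1 probe sets 0.17 to 0.23, Slc5a1 (1419057_at) 0.17 and Slc2a5 0.10. On ICD 3 the 2 Slc5a2 probe sets read 0.50 and 0.56 above the mean of the other 5, a mean that the low WT 3 pulls down. Beside WT 1 alone, ICD 3 was level, at 11.94 against 11.96 and 10.70 against 10.64. The Slc5a1 probe sets on ICD 3 read -0.46 and -0.33 relative to the mean of the other 5.

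Markers of the tubule segments moved with these carriers on WT 3. Of the S1 and S2 markers 6 of 8 were lowest on WT 3, beside 17.1% of all genes at their brightest probe set. Their mean level there was 10.61, against 11.80 to 12.04 on the other arrays. The median deviation of these markers on WT 3 from the mean of the other 5 arrays was -0.26. None of these markers was called between the genotypes. The drop was uneven: Slc5a12, a lactate carrier of the proximal tubule and a relative of the glucose carriers, read 4.12 on WT 3, against 9.27 to 10.47 on the other arrays (1456123_at), and its other probe set read 4.34, against 9.01 to 10.19. Slc34a3, a phosphate carrier, read 6.46, against 8.68 to 9.35, and Slc6a19, a carrier of neutral amino acids, 9.43, against 10.63 to 11.15. Cubn, the cubilin co-receptor of megalin, read 12.50, against 12.51 to 12.64, and Slc22a6, an organic anion carrier, 13.06, against 13.06 to 13.17. Of the S3 markers 5 of 7 were highest on WT 3, beside 20.6% of all genes taken the same way. Their mean level there was 13.19, against 12.97 to 13.11 on the other arrays. Slc5a8, the lactate carrier of the later tubule, also read highest there, at 12.13, against 11.80 to 11.96. Podocyte markers averaged 7.73 on WT 3, against 7.85 to 8.32, endothelial markers 7.98, against 8.30 to 8.59, thick limb markers 11.76, against 11.51 to 11.71, and collecting duct markers 10.02, against 9.74 to 9.90. WT 3 is 1 animal, and the part of segment content, sampling or genotype in these values was not tested.

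**Figure D3:**
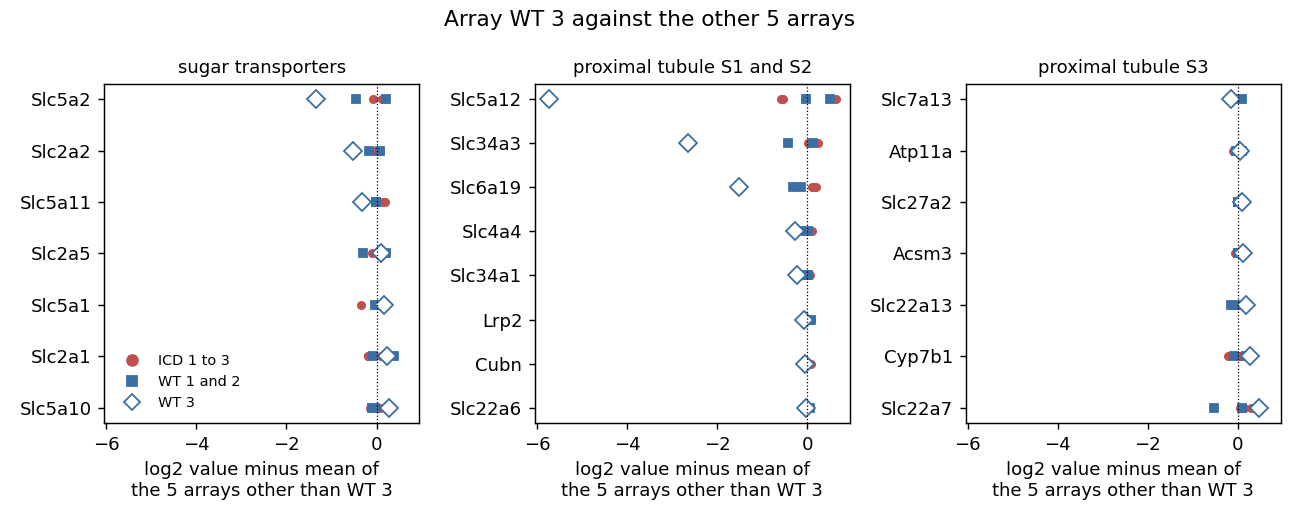
Deviation of each array, in log2 units, from the mean of the 5 arrays other than WT 3, for the brightest probe set of each sugar transporter (left), of S1 and S2 markers (middle) and of S3 markers (right); circles are ICD animals, squares WT 1 and WT 2, and open diamonds WT 3. WT 3 lies left of the other points for Slc5a2 and Slc2a2, level with ICD 3 for Slc5a11, and far to the left of them for Slc5a12 (4.12 against 9.27 to 10.47); it lies furthest right for Slc5a10.

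For each carrier the 3 genes with the closest profile over the 6 arrays were listed by Pearson's r, among 1908 bright and variable probe sets with a single gene; with 6 arrays and so many candidates high values arise readily, and r serves only to rank. Slc5a2 (1455005_s_at) was followed most closely by Plxna2 (r = 0.979), the brush border dipeptidase Dpep1 (0.978) and Npl, an enzyme of sialic acid breakdown (0.978). Without WT 3 these values were 0.884, 0.965 and 0.884, the least change for Dpep1. Slc2a2 also had Plxna2 first (0.984), then Fabp7 (0.983) and Sectm1b (0.982). For both Slc5a1 and Slc5a10 the nearest gene was Jarid2, a chromatin protein, at different probe sets (0.979 and 0.988, and 0.978 and 0.979 without WT 3). Slc5a10 was further followed by Adat2 (0.988) and Vnn1, the brush border pantetheinase (0.966). Slc5a1 was further followed by Slc38a6 (0.969) and Nudt18 (0.963). Slc5a11 had Fabp5 (0.965), Prodh2 (0.953) and Crym (0.941), Slc2a5 had Clcn6 (0.988), Osbpl3 (0.936) and Aqp4 (0.933), and Slc2a1 had B4galt6 (0.989), Rab27a (0.977) and Mcm9 (0.962).

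Of 33 related genes of sugar handling, 25 were matched to a probe set with a single listed gene and analysed here. At the brightest probe set of each, 0 of 25 passed in limma and 2 had an unadjusted p under 0.05, against 0 and 3.94% of all genes taken the same way. The ICD mean was higher for 10 and lower for 15, with a median difference of -0.0054, compared with -0.012 over all genes. Groups did not overlap for 3 of 25, beside 9.10% of all genes. The largest positive difference was that of Slc5a12, 1.58 with an interval of -1.64 to 4.81, which was -0.41 without WT 3.

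Txnip, a glucose-induced arrestin that restrains GLUT1 at the cell surface, followed. Its probe set 1415996_at read 11.35, 11.27 and 11.18 in ICD kidneys, against 11.17, 10.70 and 10.81 in WT kidneys. The groups did not overlap, though WT 1 came within 0.01 of ICD 3. The difference was 0.37 (interval 0.09 to 0.65, unadjusted p = 0.0147, limma adjusted p = 0.725), and 0.33 without WT 3. Its other probe set, 1415997_at, differed by 0.41 (interval 0.06 to 0.76), and there WT 1 lay above ICD 3.

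Miox, which starts myo-inositol breakdown, differed by 0.19, and by 0.08 without WT 3. At the lower end stood the hexokinases Hk1 (-0.16, interval -0.31 to -0.0044, limma adjusted p = 0.844) and Hk2 (-0.15, interval -0.59 to 0.29) and the kinase Sgk1, which activates SGLT1 in expression systems (-0.15, interval -0.43 to 0.13). Hk2 turned to 0.02 without WT 3. Pdzk1ip1, the membrane partner that SGLT2 needs for activity, read 13.22, 13.33 and 13.17 in ICD kidneys, against 13.26, 13.30 and 13.11 in WT kidneys. Like Slc5a2 it was lowest on WT 3, though by a small margin. It differed between the genotypes by 0.01 (interval -0.17 to 0.20). Khk, the fructokinase that acts on fructose once GLUT5 or SGLT5 has brought it in, differed by -0.0054 (interval -0.16 to 0.15).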

How the data were processed

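Kidney RNA from 3 ICD and 3 WT mice was measured on 1 array per animal. The deposited values are log2 values (3.11 to 15.11), made by the authors with RMA per the submitters' processing notes: background correction, quantile normalization and median polish, which removes shifts shared by most transcripts and compresses differences of dim probe sets. Its version, the chip definition and any filter are not given in the sources used here, and no scanner files were used.

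Of 45101 rows, 64 controls were left out. Of the remaining 45037 probe sets, 34945 had 1 gene symbol in the platform annotation, 932 had several and 9160 had none; through Entrez identifiers 34741 were found in RefSeq (GRCm38.p6, used for names, gene overlaps and promoters) and 0 symbols were updated. The genotypes were tested, 2-sided, with lmFit and eBayes of limma 3.58.1 (R 4.3.3) and genotype alone in the design; p-values were adjusted by Benjamini-Hochberg over the whole table, with a threshold of 0.05. The fit was tested on simulated data. Replicates are separate animals; the number of arrays limits precision, and array pairs correlated at 0.9949 to 0.9966.

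Named genes were all members, the 3 largest differences each way among related genes, and the 3 closest profiles per member among probe sets with a mean at or above the median and an SD of at least 0.2; Slc5a8, Pdzk1ip1, Khk and the marker genes were singled out after their values were seen. Members and lists were chosen with earlier results of these data known. The alternatives were leaving out each array, a replicate block, a trended and robust prior, array weights, a second quantile normalization, bright probe sets only and gene means over probe sets.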

Additional observations from a re-analysis of the deposited data

How the results depend on the processing

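Under no alternative did a sugar transporter probe set or a related gene pass the threshold in limma. Of 121 recomputed member differences, 113 kept their direction. The 8 that turned belonged to 3 genes. Slc5a10 differed by 0.00094 with all arrays, by -0.0065 after a second quantile normalization and by -0.0802 (without ICD 1) to 0.12 (without WT 3) when 1 animal was left out, with negative values also without ICD 2, WT 1 or WT 2. Leaving out 1 animal moved Slc2a5 between -0.12 (without WT 2) and 0.131 (without WT 1), negative also without ICD 2, and Slc5a1 at 1419057_at between -0.179 (without ICD 2) and 0.0835 (without ICD 3); the cause was not tested. Over the whole array, leaving out 1 animal gave 0 to 1 called probe sets, and the trended and robust prior gave 1. With all arrays 0 of the 11 member probe sets had an unadjusted limma p under 0.05, against 5.86% of all probe sets. Without WT 1 the count was 6, against 7.23%. It was 2, each time of Slc2a1, without ICD 2 (against 5.14%), with the replicate block (5.92%) or with array weights (6.17%). It was 1 without ICD 3 (5.91%) or after the second quantile normalization (6.05%). Probe sets of a gene repeat each other. The Slc5a2 differences lay between 0.20 and 0.97 (1455005_s_at) and between 0.21 and 1.04 (1419166_at) over all alternatives. Deviations of same-numbered arrays correlated at -0.0057, 0.0077 and -0.05, beside -0.062 to 0.076 for arrays of unlike number. The numbers thus showed no pairing over the whole array, and pairing by litter was not tested. With the number as a replicate block, 0 probe sets were called over the array and 0 of 11 member probe sets. The block took the SE of Slc2a1 (1434773_a_at) from 0.130 to 0.085 (limma unadjusted p = 0.0162, adjusted p = 0.768) and that of Slc5a10 from 0.126 to 0.145. The mean of all its probe sets gave differences of 0.64 for Slc5a2, -0.14 for Slc5a1 and -0.22 for Slc2a1.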

Other observations

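Chosen after their values were seen, the 19 probe sets that read at least 1 below the other 5 arrays on WT 3 included, beside both Slc5a12 probe sets, Slc34a3, 1 of Slc5a2 and 2 of Slc6a19. The 2 of Slc5a12 had the widest gaps of the 19, at 5.15 and 4.67 below the lowest other array. They also included Cyp2d26, a cytochrome P450, at 8.48, against 10.50 to 11.00 on the other arrays. Gatm, which makes the creatine precursor in the early tubule, read 10.93, against 12.01 to 12.51. Cyp24a1, which degrades active vitamin D, read 6.91, against 8.69 to 10.57. In the other direction 3 probe sets read at least 1 above the other arrays, among them Cyp4a14, a fatty acid hydroxylase, at 8.06, against 5.93 to 6.73. WT 3 is a single animal, so these are values without a replicate check.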
